A study of Mus musculus with 15 samples.

Results

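The difference between libraries lettered H and libraries lettered L was examined as an average over 2 conditions. It used 12 of the 15 libraries of the series, all those of the conditions in which both letters occur. The 6 H libraries were KA_H (3 libraries) and APOE_H (3 libraries), and the 6 L libraries were KA_L (3 libraries) and APOE_L (3 libraries). The remaining 3 libraries, CTRL_L, had no H counterpart and entered no test. The labels give all of them as brain of C57BL/6 mice in a study of temporal lobe epilepsy in which seizures are induced with kainic acid (KA), a compound that activates one class of glutamate receptor. The KA groups are labelled as treated with KA, the APOE groups as KA and APOE, and CTRL_L as untreated. The labels define neither letter, leave the handling of APOE unstated, and give no age, allele or dose. They also do not tie a library to an animal, so each p-value rests on the spread among libraries of a group, which may be technical.

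As background, brain tissue holds neurons, astrocytes, oligodendrocytes and their precursors, vascular cells and microglia, the resident macrophages. Microglia keep a homeostatic set of genes in the healthy brain and, after injury or seizures, can move to a state with more lysosomal, lipid-handling and antigen-presenting transcripts. The choroid plexus is an epithelium in the ventricles that makes cerebrospinal fluid and transcribes transthyretin at very high levels, and ciliated ependymal cells line the ventricles beside it. Cells make ATP through glycolysis and through the respiratory chain, whose complexes combine subunits encoded in the nucleus with a few encoded in mitochondrial DNA.

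Expression was given in TPM, a relative abundance scaled for transcript length and library size. TPM carries no read depth, so counting error cannot be given for single values. The labels give the tissue as brain and name no isolated cell type, while the title of the series speaks of astrocytes. Which cells the libraries represent is therefore uncertain. Microglial transcripts were abundant in all 12 libraries: each of the 20 homeostatic markers passed the expression filter (at least 1 TPM in 3 or more of these 12), and P2ry12, a purinergic receptor of microglia, ran from 878 to 3183 TPM. Most markers of the other brain cells did not pass. Of astrocyte markers 9 of 20 were kept, of neuron markers 2 of 20 and of oligodendrocyte markers 7 of 14. For oligodendrocyte precursors the number was 0 of 10, and for mural cells and fibroblasts 2 of 14. Gfap, the astrocyte intermediate filament gene, did not exceed 3.53 TPM in any of the 12 libraries and was listed at 0 in 8 of them, and the neuronal gene Rbfox3 was listed at 0 in 11. A value of 0 in the table is not always absence, since Pgk1, a glycolytic enzyme that every cell uses, was listed at 0 in APOE_L replicate 1 while its other 11 values ran from 0.09 to 257 TPM. Values are therefore given by library or as the lowest, median and highest of 6, and genes at 0 are called listed at 0.

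Library composition differed with the letter as well, as the plot of 4 library measures shows. Entries at 1 TPM or more numbered 12801 to 15452 in H and 9931 to 12085 in L, a mean difference of 2986 (exact two-sided permutation test within conditions, p = 0.005, the smallest that the 400 arrangements allow, adjusted p = 0.01 over 8 measures). Entries above 0 went the other way, at 16715 to 19007 in H and 18620 to 19899 in L, a mean difference of -1250 (exact permutation p = 0.02, adjusted p = 0.0267). Loci assembled from the reads, which have no gene name, held 2.20 to 6.78% of the TPM in H and 10.6 to 12.1% in L, a mean difference of -7.25 percentage points (exact permutation p = 0.005, adjusted p = 0.01). Reads of named genes may have been counted in these loci, which bears on genes listed at 0 in L and was not tested. Protein-coding genes held 80.5 to 90.4% in H and 73.1 to 75.1% in L, and 18 markers of the choroid plexus held 3.51 to 6.26% in H and 0.00577 to 0.146% in L (exact permutation p = 0.005 and adjusted p = 0.01 for each). Their part in the gene differences below was not tested.

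**Figure D1:**
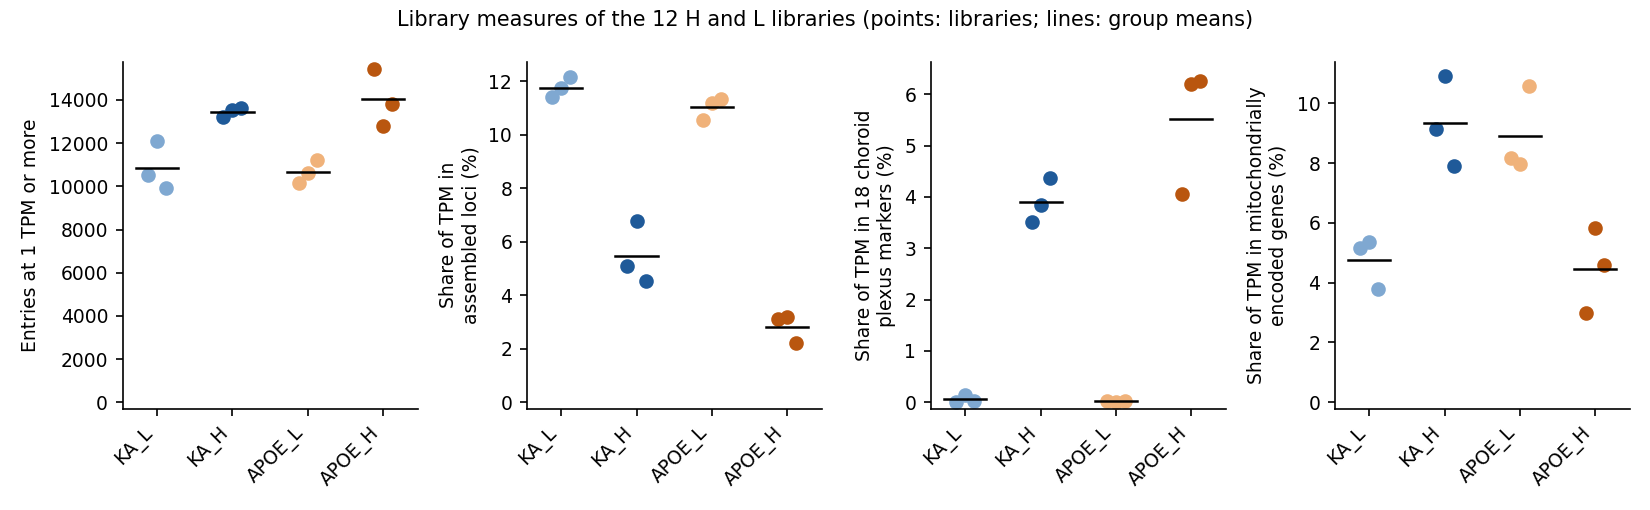
Each panel plots 1 measure (vertical axis, number of entries or percent of TPM) in the 12 libraries by group, with points for libraries and lines for the means of 3. The H libraries lie above all L libraries in entries at 1 TPM or more and in the share of choroid plexus markers (3.51% or more against 0.146% or less) and below them in the share of assembled loci, whereas the mitochondrial share is higher in KA_H than in KA_L and lower in APOE_H than in APOE_L.

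The averaged difference between H and L was tested for 16602 entries of the table with limma on log2(TPM + 1), with a mean for each of the 4 groups and Benjamini-Hochberg adjustment. At an adjusted p under 0.05, 1649 entries were higher in H (9.93% of those tested) and 541 were lower (3.26%), together 13.2%. Among the 11584 protein-coding genes, 1532 were higher (13.2%) and 319 lower (2.75%). Most entries that were higher in H were low in L. Of the 1649, 1080 (65.5%) stood under 1 TPM in at least 4 of the 6 L libraries, against 34.98% of all entries tested. With entries limited to those with a mean of 5 TPM or more in each group, 374 were higher and 391 lower of 6036. The median difference over all 16602 entries was 0.34 on the log2 scale. After quantile normalization it was -0.13, with 1382 entries higher and 1105 lower, so that 55.6% of the calls were higher in H against 75.3% without it. The balance between the directions thus changed with the filter and with the scaling, and its cause was not tested. The number lower also depended on single libraries, at 338 without APOE_H replicate 3 and 339 without KA_H replicate 3.

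Apoe, which encodes the major apolipoprotein of brain lipid transport, checks the condition labels. It stood at 3084, 3262 and 1970 TPM in KA_L and at 16636, 10438 and 8767 TPM in KA_H. In APOE_L it was at 0.69 and 0.71 TPM and listed at 0 in the third library, and in APOE_H it was at 144, 6.49 and 12.4 TPM. Apoe was thus lower in every APOE library than in every KA library, and within each condition the H libraries lay above the L libraries. The averaged difference was 3.09 on the log2(TPM + 1) scale (SE 0.60, adjusted p = 0.00517). The differences within the conditions were 2.09 in KA and 4.10 in APOE, and the test of their difference gave an adjusted p of 0.61.

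The choroid plexus held the largest differences. All 18 markers of its epithelium passed the filter and all 18 were higher in H, with a median log2 difference of 6.83, and 17 of the 18 had no overlap between H and L in either condition (5.06% of all entries tested were separated in this way with H higher). Ttr, encoding transthyretin, the thyroid hormone carrier that this epithelium secretes, stood at 31.6, 781 and 114 TPM in KA_L and at 136, 1.46 and 190 TPM in APOE_L. In KA_H it was at 23632, 24072 and 28110 TPM, and in APOE_H at 24454, 41384 and 38126 TPM. Each H library lay at least at 23632 TPM and no L library passed 781 TPM, an averaged difference of 8.59 (SE 0.94, adjusted p = 0.000103). Enpp2, encoding autotaxin, a secreted enzyme that makes lysophosphatidic acid, ran from 25.9 to 484 TPM in L (median 101) and from 8384 to 17902 TPM in H (median 11840), a difference of 6.98 (SE 0.51, adjusted p = 4.46e-06). Kcnj13, an inwardly rectifying potassium channel of this epithelium, had a median of 0.04 TPM and a highest value of 4.52 TPM in L and ran from 614 to 1303 TPM in H (9.49, SE 0.56, adjusted p = 1.36e-06). Folr1, the folate receptor that carries folate into cerebrospinal fluid, did not exceed 0.12 TPM in L and ran from 150 to 785 TPM in H. Sostdc1, a secreted antagonist of Wnt and BMP signalling, was listed at 0 in all 6 L libraries and ran from 141 to 313 TPM in H (adjusted p = 4.46e-06). Otx2, the transcription factor that maintains the epithelium, was also listed at 0 in the 6 L libraries and ran from 1.79 to 125 TPM in H (adjusted p = 0.00188). In the untreated CTRL_L libraries these 18 markers held 0.0168, 4.13 and 2.52% of the TPM, so that the first lay within the L range and the other two above it. Only 2 of the 18 had a mean of 5 TPM or more in each group, and both of these were higher with that filter; the others passed through their H values, so their count describes them and supports nothing more. In bulk libraries fewer cells of a type and less RNA per cell cannot be told apart.

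Other genes with very large differences included several that the choroid plexus or ependyma also transcribe. Igfbp2, an insulin-like growth factor binding protein that is also among the 18 markers, did not pass 0.05 TPM in L and ran from 90.1 to 907 TPM in H. Ptgds, which makes prostaglandin D2 and carries lipophilic molecules in cerebrospinal fluid, had a median of 1.31 TPM in L, with 124 TPM in KA_L replicate 2, and ran from 909 to 2336 TPM in H (8.17, SE 1.01, adjusted p = 0.00024). Clu, encoding clusterin, a secreted chaperone and lipid carrier, had a median of 0.085 TPM and a highest value of 30.2 TPM in L and ran from 767 to 2021 TPM in H (9.13, SE 0.77, adjusted p = 1.6e-05). KA_L replicate 2 held the highest L value of Ptgds and Clu, and likewise of Fxyd1, a regulator of the sodium pump (61.9 TPM against 0 in the other 5 L libraries and 572 to 1157 TPM in H). It also had the highest share of choroid plexus markers among the 6 L libraries, 0.146%. Of 10 ependyma markers 7 passed the filter. None of them had a mean of 5 TPM or more in each group, so the members were kept in part through their H values and their count is not given as a result. Cfap126, a gene of motile cilia, did not pass 0.11 TPM in L and ran from 20.03 to 102 TPM in H (5.36, SE 0.67, adjusted p = 0.000251). Foxj1, the master regulator of motile cilia, was listed at 0 in all 6 L libraries, did not exceed 2.31 TPM in H and did not pass the filter. In a fit without the genes of the choroid plexus, red blood cell and neutrophil lists, with the other values rescaled, 1719 entries were higher in H and 510 lower. That fit took out only the listed markers, and genes such as Clu and Fxyd1 stayed in. It therefore cannot show the part of cell content, which was not tested.

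**Figure D2:**
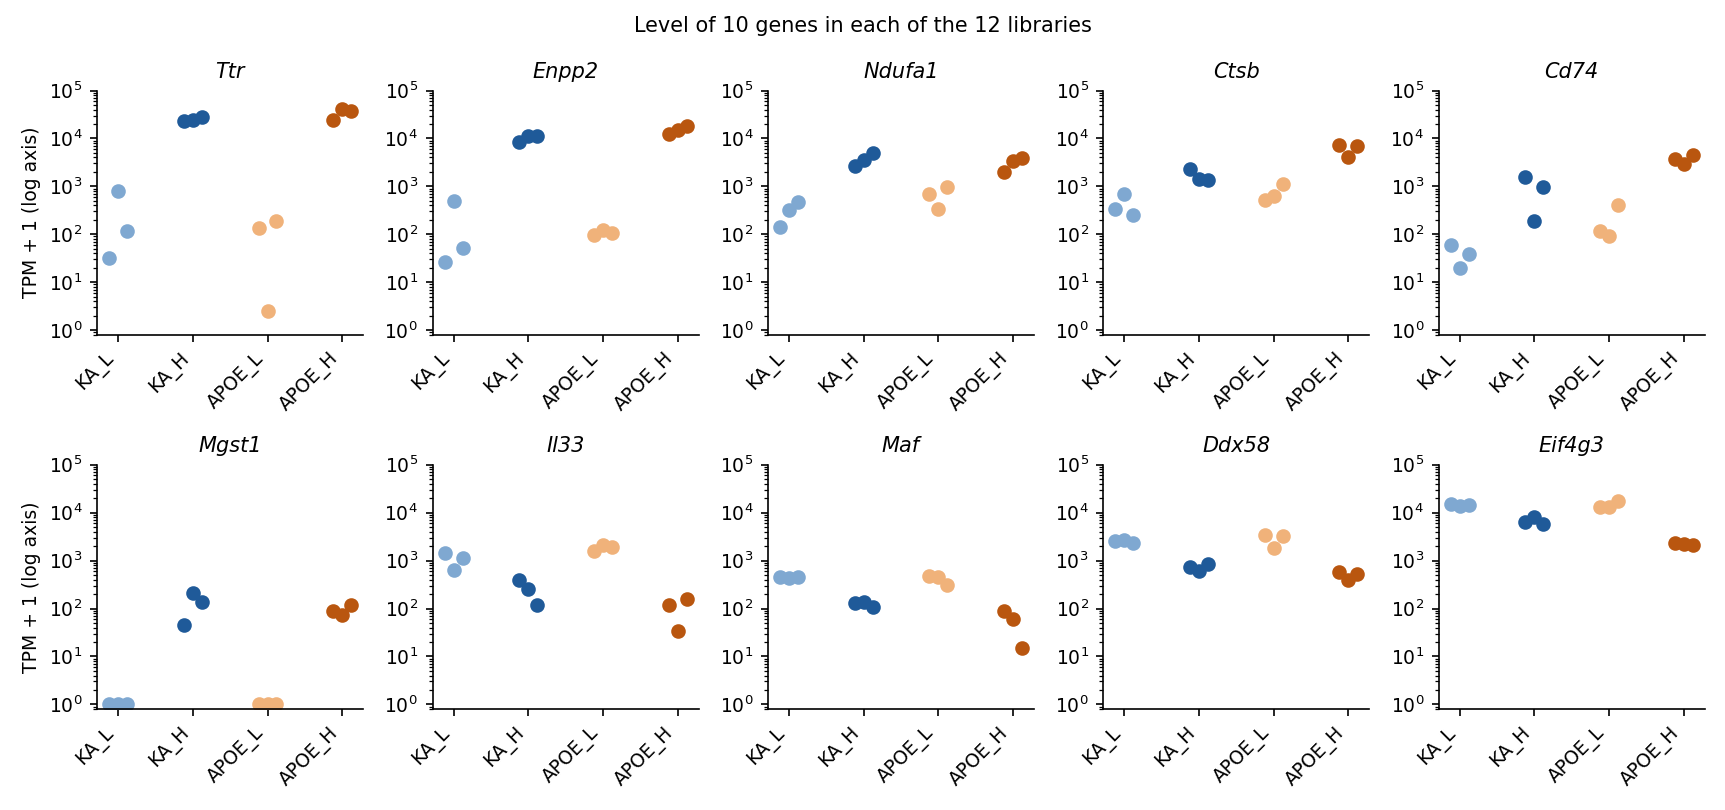
Each panel plots TPM + 1 (vertical log axis) of 1 gene in the 12 libraries by group, with 1 point a library. Ttr and Enpp2 of the choroid plexus, Ndufa1 of the respiratory chain, Ctsb of the lysosome, Cd74 of antigen presentation and Mgst1 of glutathione metabolism are higher in H than in L within each condition, and Il33, Maf, Ddx58 and Eif4g3 are lower, Eif4g3 more so in APOE_H (2126 to 2375 TPM) than in KA_H (5672 to 7941 TPM).

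A majority of the nuclear-encoded respiratory chain genes on each of 3 lists were higher in H. The list of complex I, which takes electrons from NADH, had 25 of 38 genes higher in H and 0 lower, with a median of 2.26. It counts Ndufa4, which is now assigned to complex IV. The list of complexes II to IV had 20 of 26 higher and 0 lower (median 1.92), and ATP synthase had 15 of 17 higher and 0 lower (median 2.22). The complex I count was 16 without APOE_H replicate 3, 12 with no expression filter and 14 with a variance prior without a trend, and the median over its members was between 1.91 and 2.44 in the 12 fits that each left out 1 library. All 81 members of these lists had a positive difference, against 9773 of the 16602 entries and 7891 of the 11584 protein-coding genes tested. Counts on these and the later lists stand beside 9.93% of all entries and 13.2% of protein-coding genes called higher. Called lower were 3.26% of all entries and 2.75% of protein-coding genes. Among protein-coding genes spanning under 5 kb 23.5% were called higher. Ndufa1, an accessory subunit of complex I, stood at 138, 314 and 471 TPM in KA_L and 694, 331 and 949 TPM in APOE_L. It reached 2688, 3604 and 5029 TPM in KA_H and 2019, 3389 and 3949 TPM in APOE_H, with no overlap in either condition (3.02, SE 0.34, adjusted p = 0.000115). Ndufa4 ran from 155 to 435 TPM in L and from 875 to 2530 TPM in H (2.55, SE 0.30, adjusted p = 0.000188). Uqcr11 of complex III ran from 261 to 462 TPM in L and from 1084 to 2481 TPM in H (2.16, SE 0.25, adjusted p = 0.000165). Cox6a1 of complex IV ran from 148 to 502 TPM in L and from 865 to 2112 TPM in H (2.34, SE 0.30, adjusted p = 0.000269). Sdhd, a membrane anchor of complex II, stood at 0, 0.64 and 0.05 TPM in KA_L and 241, 155 and 281 TPM in KA_H, and at 80.7, 108 and 5.67 TPM in APOE_L and 180, 184 and 230 TPM in APOE_H. The L libraries of APOE lay closer to H than those of KA, and the test of the difference between conditions for Sdhd gave an adjusted p of 0.23. Atp5h of the ATP synthase ran from 50.2 to 204 TPM in L and from 545 to 1021 TPM in H (2.72, SE 0.34, adjusted p = 0.000267). Cox8b and Chchd10, which encode a cytochrome oxidase subunit and a protein of the mitochondrial intermembrane space, were among the 12 genes with the largest differences. Cox8b was listed at 0 in all 6 L libraries and ran from 107 to 686 TPM in H.

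Of 14 genes encoded in mitochondrial DNA that were tested, 2 were higher in H, 1 was lower and 11 were not called, with a median of -0.04, which turned positive with upper-quartile scaling (0.09) and without the choroid plexus, red blood cell and neutrophil genes (0.03). Without KA_H replicate 2 or APOE_H replicate 2, 2 were lower. With a variance prior without a trend the 3 calls were lost. Mt-Co1, the catalytic subunit of cytochrome oxidase, ran from 1247 to 3998 TPM in L and from 3096 to 9329 TPM in H (1.31, SE 0.19, adjusted p = 0.0009), and mt-Nd5 of complex I was also higher in H (0.87, SE 0.21, adjusted p = 0.0153). Mt-Nd3, another complex I subunit, was lower, from 1001 to 2195 TPM in L to 124 to 1094 TPM in H (-1.71, SE 0.36, adjusted p = 0.00775). The 2 conditions had opposite signs, with list medians of 1.01 in KA and -1.03 in APOE. Mt-Atp6, a membrane subunit of the ATP synthase, stood at 14302, 14951 and 9809 TPM in KA_L and 23852, 26130 and 18586 TPM in KA_H. In APOE_L it was at 25535, 23726 and 33203 TPM and in APOE_H at 6907, 13522 and 10005 TPM. Its averaged difference was -0.33 (SE 0.16, adjusted p = 0.19), while the difference between the conditions was -2.30 (SE 0.32, adjusted p = 0.029), a call lost with a replicate block, a variance prior without a trend or a pseudocount of 5. The mitochondrial share of the TPM was higher by 4.55 percentage points in KA_H than in KA_L and lower by 4.44 points in APOE_H than in APOE_L (test of the difference, exact permutation p = 0.005, adjusted p = 0.02 over 8 measures). Nuclear copies of mitochondrial sequence such as Gm28437 and Gm29216 share near-identical sequence with these genes, so their values are uncertain.

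Of 48 large-subunit proteins of the cytosolic ribosome 4 were higher and 1 was lower, and of 33 small-subunit proteins 4 were higher and 0 lower, with medians of 0.68 and 0.59. Both shares are near the 9.93% of all entries called higher, so they are not a result about the ribosome. The summed share of ribosomal proteins was 2.28 to 3.48% of the TPM in H and 1.57 to 2.39% in L, a mean difference of 0.725 points (exact permutation p = 0.02, adjusted p = 0.0267). Rps25 ran from 502 to 1002 TPM in L and from 1455 to 2840 TPM in H (1.46, SE 0.21, adjusted p = 0.000856), and Rpl37a from 101 to 405 TPM in L and from 535 to 844 TPM in H (1.80, SE 0.33, adjusted p = 0.00362). Rpl22l1, a paralog of the ribosomal protein L22, was lower in H, from 508 to 1013 TPM in L to 124 to 436 TPM in H (-1.50, SE 0.28, adjusted p = 0.00404). Without KA_H replicate 3, 1 large-subunit and 2 small-subunit proteins were higher, without APOE_H replicate 3 the large-subunit count was also 1, and without KA_L replicate 2 the small-subunit counts were 6 higher and 1 lower.

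**Figure D3:**
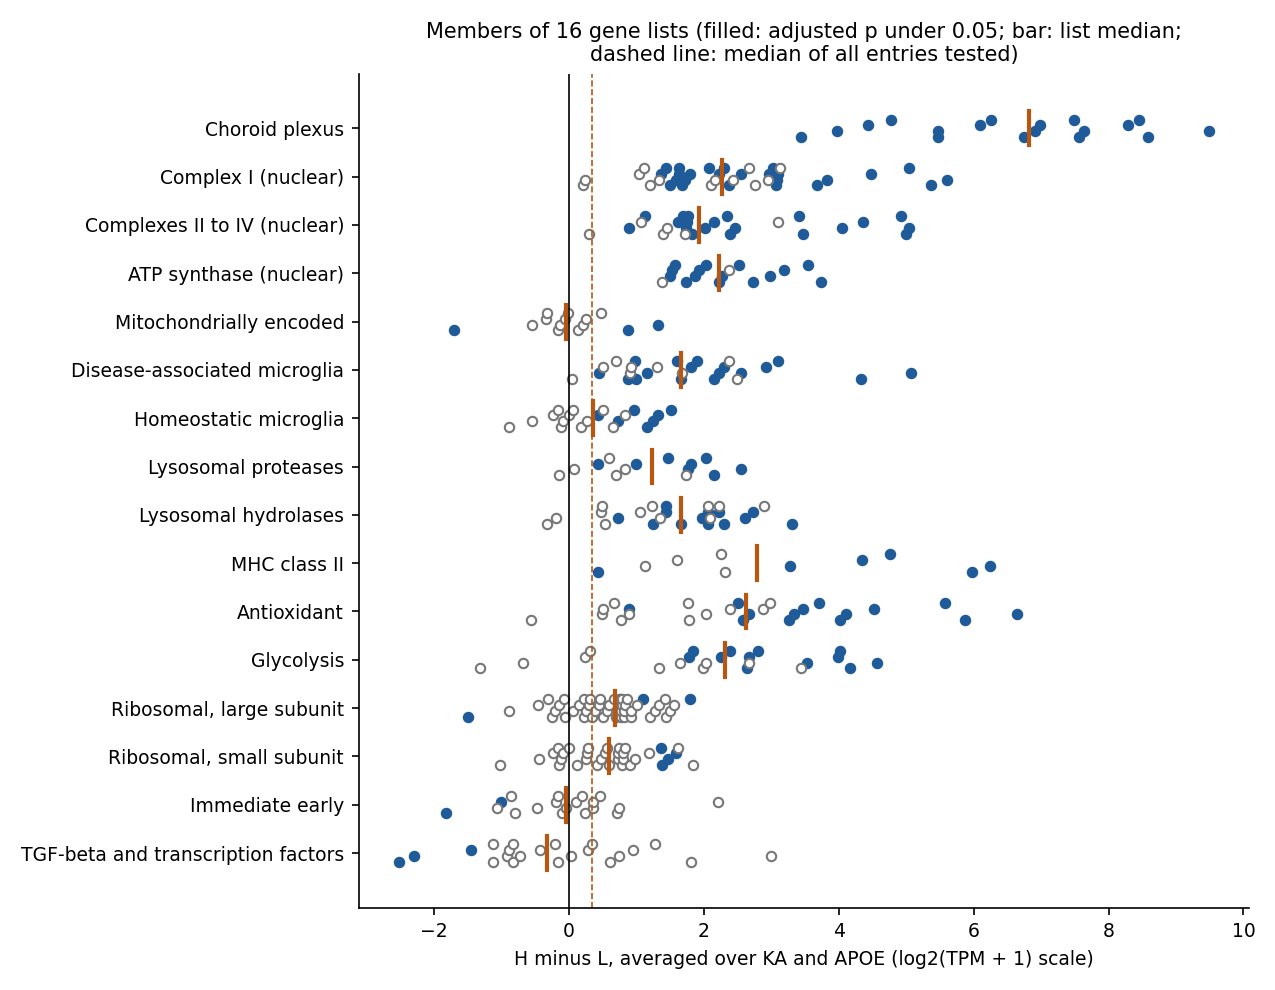
Each point is the averaged H minus L difference (horizontal axis, log2(TPM + 1) scale) of 1 tested member of 16 gene lists, filled where the adjusted p is under 0.05, with a bar at the list median and a dashed line at the median of all entries, 0.34. Choroid plexus and nuclear respiratory chain members lie to the right of that line with few exceptions, mitochondrially encoded and immediate early genes lie around 0, and the transcription factor list lies lowest, with a median of -0.32.

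Of 26 genes of the disease-associated state, 17 were higher in H and 0 lower, with a median of 1.66, whereas of 20 homeostatic markers 7 were higher and 0 lower, with a median of 0.35, close to that of all entries. The difference between these lists was not tested. With a variance prior without a trend the disease-associated count was 10 and all 7 homeostatic calls were lost, and 4 homeostatic markers were higher with no expression filter or in the fit of 15 libraries. The 7 included Trem2, which is also in the disease-associated list, the 3 genes of complement C1q, the protease gene Ctss and Fcrls, an Fc receptor-like gene. The receptors that define resting microglia were not called: P2ry12 had a difference of -0.24 (SE 0.24, adjusted p = 0.557), Cx3cr1, the fractalkine receptor, of -0.17 (SE 0.32, adjusted p = 0.776) and Csf1r, the receptor for the growth factor that sustains microglia, of 0.05 (SE 0.28, adjusted p = 0.924). Itgax, encoding the integrin CD11c of the disease-associated state, ran from 0.05 to 12.1 TPM in L (median 0.92) and from 40.2 to 70.8 TPM in H (4.33, SE 0.72, adjusted p = 0.00195). Cd63, a tetraspanin of late endosomes, ran from 246 to 764 TPM in L and from 1393 to 2257 TPM in H (2.30, SE 0.27, adjusted p = 0.000165). Cd68, a lysosomal membrane glycoprotein of phagocytes, ran from 299 to 772 TPM in L and from 1068 to 2368 TPM in H (1.65, SE 0.22, adjusted p = 0.000389). Cst7, encoding cystatin F, an inhibitor of lysosomal proteases, ran from 317 to 1398 TPM in L (median 338) and from 1287 to 2189 TPM in H (1.81, SE 0.31, adjusted p = 0.00222), with APOE_L replicate 1 as the L library within the H range. Trem2, the lipid-sensing receptor of microglia, ran from 329 to 739 TPM in L and from 664 to 1892 TPM in H (1.16, SE 0.23, adjusted p = 0.00561). Spp1, encoding osteopontin, was not called (2.37, SE 0.90, adjusted p = 0.10), and neither were the lipoprotein lipase gene Lpl (0.70, SE 0.52, adjusted p = 0.397) and the receptor tyrosine kinase gene Axl (1.30, SE 0.63, adjusted p = 0.186).

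The complement list had 6 of 14 genes higher and 1 lower, with a median of 1.14. Of the 6, C1qa, C1qb and C1qc were also counted among the homeostatic markers. C1qb, a chain of the recognition molecule of the classical pathway, ran from 1687 to 4692 TPM in L and from 7282 to 10153 TPM in H, with no overlap (1.25, SE 0.19, adjusted p = 0.000957). C5ar1, the receptor for the complement fragment C5a, ran from 0.40 to 5.97 TPM in L and from 13.2 to 68.7 TPM in H (3.12, SE 0.67, adjusted p = 0.00882). Without KA_L replicate 3 the complement counts were 5 higher and 2 lower, and with a variance prior without a trend 3 were higher and the call of the lower one was lost. Cytokines and chemokines had 1 of 20 higher, Ccl6 (1.60, SE 0.41, adjusted p = 0.0219), whose call was lost without KA_H replicate 3 (adjusted p = 0.0536). Without KA_L replicate 1, KA_H replicate 1 or APOE_L replicate 1, 2 genes of that list were higher, and without APOE_L replicate 3, 2 were higher and 1 lower.

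Of 3 lysosomal lists, those called higher in H were 8 of 14 proteases and cystatins (median 1.23), 13 of 25 hydrolases and membrane proteins (median 1.65) and 6 of 16 subunits of the vacuolar proton pump that acidifies the lysosome (median 1.56). None was called lower, and 6, 12 and 10 members were not called. Among those called higher, Ctsd, Ctsb, Cd63 and Cd68 were also counted in the disease-associated list. With a variance prior without a trend 5 proteases and cystatins and 3 pump subunits were higher, and with no expression filter 5 of 15 proteases and cystatins. The transcription factor TFEB and its relatives are known to bind the CLEAR element of lysosomal promoters, whose core is TCACGTG. This core, searched on both strands, stood in the 250 bases upstream of the start of 10 of the 42 lysosomal genes with a RefSeq promoter (23.8%). Of all 27025 genes with a promoter 968 held it (3.58%), and of 25 called higher 5 held it. The search was 1 of 6 made in the same way, in which a gene counted if any of its promoters held the motif. In the others, TAATCC, the core that OTX factors bind, stood in 1 of 13 choroid plexus genes (7.7%, against 7.21% of all). GGAAG, the core that ETS factors bind, stood in 32 of 50 genes of complex I and ATP synthase (64.0%, against 66.85%). The NRF1 core, which reads GCGC, AT and GCGC in a row, stood in 3 of those 50 (6.0%, against 0.88%), and CCAAT in 6 of 8 genes of MHC class II presentation (against 37.49% of all). The interferon motif is given with its genes. Promoters of 3 of those 5 are shown from RefSeq, build GRCm38.p6, as the genes whose expression is described next, with each match in capitals, 5′ to 3′ on the strand of the gene. They are chr7:142387828-142388077 on the minus strand for Ctsd, chr8:13158911-13159160 on the plus strand for Lamp1 and chr2:164833523-164833772 on the plus strand for Ctsa.
Ctsd: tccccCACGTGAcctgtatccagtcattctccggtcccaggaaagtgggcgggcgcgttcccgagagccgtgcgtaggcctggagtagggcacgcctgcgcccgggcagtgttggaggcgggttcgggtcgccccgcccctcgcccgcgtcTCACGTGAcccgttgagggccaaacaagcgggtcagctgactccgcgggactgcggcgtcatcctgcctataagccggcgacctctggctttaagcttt
Lamp1: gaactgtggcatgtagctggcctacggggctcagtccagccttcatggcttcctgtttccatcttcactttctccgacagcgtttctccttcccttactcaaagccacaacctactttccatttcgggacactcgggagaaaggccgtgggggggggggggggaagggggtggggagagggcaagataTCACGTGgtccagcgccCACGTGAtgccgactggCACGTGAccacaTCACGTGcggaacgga
Ctsa: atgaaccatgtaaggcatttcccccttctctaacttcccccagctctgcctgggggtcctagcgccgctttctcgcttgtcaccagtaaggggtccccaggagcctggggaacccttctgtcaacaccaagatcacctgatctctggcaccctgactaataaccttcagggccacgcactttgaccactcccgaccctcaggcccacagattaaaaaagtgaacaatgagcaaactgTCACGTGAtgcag
The Ctsd window held the core in 2 places, 1 of them read on both strands, that of Lamp1 in 4 places and that of Ctsa in 1 place. A match describes the letters only and is not a measurement of binding.

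Ctsd, the aspartic protease cathepsin D, stood at 2316, 2481 and 1446 TPM in KA_L and 4975, 3721 and 3803 TPM in KA_H. It was at 2057, 1524 and 2321 TPM in APOE_L and 24881, 10230 and 26090 TPM in APOE_H. All H values lay above all L values, with the highest in APOE_H (averaged difference 2.15, SE 0.23, adjusted p = 7.85e-05), and the test of the difference between conditions gave an adjusted p of 0.12. Lamp1, the main glycoprotein of the lysosomal membrane, ran from 76.2 to 233 TPM in L and from 218 to 1627 TPM in H (1.97, SE 0.35, adjusted p = 0.00319). Lamp1 was higher in every H library than in the L libraries of its own condition, with the highest values in APOE_H. Ctsa, a carboxypeptidase that protects other lysosomal enzymes, ran from 136 to 227 TPM in L and from 232 to 1219 TPM in H (1.47, SE 0.28, adjusted p = 0.00457). Ctsb, the cysteine protease cathepsin B, ran from 250 to 1096 TPM in L and from 1336 to 7129 TPM in H (2.54, SE 0.28, adjusted p = 0.000115). Laptm5, a lysosomal membrane protein of blood-lineage cells, ran from 130 to 374 TPM in L and from 342 to 3176 TPM in H (2.06, SE 0.34, adjusted p = 0.00195), with KA_H replicate 2 below KA_L replicate 2. Atp6v0c, the proteolipid ring subunit of the proton pump, ran from 99.2 to 422 TPM in L and from 651 to 1525 TPM in H (2.17, SE 0.33, adjusted p = 0.00107). Tfeb itself was not called (2.06, SE 1.04, adjusted p = 0.20).

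Antigen presentation through MHC class II had 6 of 10 genes higher and 0 lower, with a median of 2.79, and 2 of 6 with a mean of 5 TPM in each group. Cd74, the invariant chain that guides class II molecules, was at 58.4, 18.6 and 37.5 TPM in KA_L, 1551, 187 and 951 TPM in KA_H, 115, 89.2 and 398 TPM in APOE_L and 3659, 2955 and 4471 TPM in APOE_H. H and L did not overlap in either condition, although KA_H replicate 2 lay below APOE_L replicate 3 (4.35, SE 0.53, adjusted p = 0.0002). H2-Aa, the class II alpha chain, ran from 0.09 to 287 TPM in L (median 12.5) and from 155 to 1185 TPM in H (6.24, SE 0.61, adjusted p = 4.41e-05), and H2-Eb1, a beta chain, had a median of 0.015 TPM in L and 234 TPM in H (5.98, SE 0.89, adjusted p = 0.000943). Class I presentation had 2 of 16 higher, near the shares of all entries (9.93%) and of protein-coding genes (13.2%), namely H2-D1 (2.23, SE 0.42, adjusted p = 0.00425) and H2-T22 (3.30, SE 0.85, adjusted p = 0.0224), and the second was lost without KA_H replicate 1 (adjusted p = 0.0532) or APOE_H replicate 1 (adjusted p = 0.0598). Genes of the H2 locus resemble each other closely, so reads may have been shared among them.

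Interferon-stimulated genes had 6 of 24 higher, 1 lower and a median of 2.23. Without APOE_H replicate 3, with no expression filter or in the fit of 15 libraries, 3 were higher. With a mean of 5 TPM in each group 3 of 13 were higher and 1 lower. The summed TPM of the list had means of 3862 in KA_L and 4190 in KA_H. In APOE it went the other way, with means of 4475 in APOE_L and 3424 in APOE_H. Ifitm3, a membrane protein that restricts virus entry, ran from 101 to 474 TPM in L and from 583 to 1776 TPM in H (2.21, SE 0.38, adjusted p = 0.00237). Mx1, a GTPase with antiviral activity, did not pass 0.19 TPM in L and ran from 2.05 to 17.8 TPM in H (2.89, SE 0.60, adjusted p = 0.00728). It therefore passed the filter through its H values alone. Ddx58, which encodes the RNA sensor RIG-I, was lower, at 2545, 2743 and 2315 TPM in KA_L, 720, 610 and 844 TPM in KA_H, 3414, 1840 and 3295 TPM in APOE_L and 571, 396 and 519 TPM in APOE_H. No H library reached the L range in either condition (-2.15, SE 0.20, adjusted p = 2.67e-05). A core of the interferon-stimulated response element, 2 GAAA runs with 2 bases between them, was searched on both strands. It stood in the 250 bases upstream of 8 of 18 list members with a promoter (44.4%), against 3.46% of all genes with a promoter. Of the 3 called higher with a promoter, 1 held it.

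Of 22 glycolytic genes 12 were higher in H, 0 lower and 10 not called (median 2.32), and with no expression filter 5 were higher. Of 22 genes of fatty acid oxidation 10 were higher, 0 lower and 12 not called (median 2.15). With no filter 7 of these were higher, and with a mean of 5 TPM in each group 2 of 9. Eno1, the enolase of most tissues, ran from 0.54 to 36.3 TPM in L and from 94.0 to 1025 TPM in H (4.57, SE 0.67, adjusted p = 0.000888), and Ldha, a lactate dehydrogenase subunit, from 12.2 to 179 TPM in L and from 111 to 587 TPM in H (2.67, SE 0.40, adjusted p = 0.000908). Gapdh, often used as a reference gene, ran from 38.2 to 372 TPM in L and from 424 to 2188 TPM in H (2.39, SE 0.47, adjusted p = 0.00534). Slc25a20, the carrier that brings acylcarnitines into mitochondria, ran from 0 to 1.86 TPM in L and from 9.70 to 29.4 TPM in H (3.85, SE 0.66, adjusted p = 0.00228). Acaca, which makes malonyl-CoA, the first step of fatty acid synthesis, went the other way. It was at 3763, 3537 and 3326 TPM in KA_L, 1463, 2089 and 1422 TPM in KA_H, 2814, 2395 and 3243 TPM in APOE_L and 577, 558 and 531 TPM in APOE_H. All L values lay above all H values (-1.72, SE 0.15, adjusted p = 2.21e-05).

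Genes of cholesterol handling had 7 of 25 higher and 0 lower (median 1.55), and 11 were higher without KA_L replicate 2. With a mean of 5 TPM in each group 1 of 9 was higher and the median was negative, at -0.20, and after quantile normalization it was 0.84. Beside Apoe they included Npc2, which moves cholesterol out of the lysosome, from 11.3 to 184 TPM in L to 373 to 857 TPM in H (2.61, SE 0.56, adjusted p = 0.00872), and Idi1 and Msmo1, enzymes of cholesterol synthesis (3.97, SE 0.72, adjusted p = 0.00351 and 4.17, SE 0.83, adjusted p = 0.00607). Abca1, the transporter that loads lipid onto apolipoprotein E, was not called (-0.52, SE 0.42, adjusted p = 0.443). The lipid droplet and fatty acid synthesis list had 2 of 24 higher, near the share of all entries, Plin3, a lipid droplet coat protein (3.69, SE 0.65, adjusted p = 0.00284), and Acsl3, which activates fatty acids (2.46, SE 0.71, adjusted p = 0.0354), and 1 lower, Acaca, or 2 lower without KA_L replicate 2. The Acsl3 call was lost in 7 of the 12 fits that left out 1 library, at adjusted p values of 0.0531 to 0.0673 (without KA_L replicate 1, 2 or 3, APOE_L replicate 1, 2 or 3, or APOE_H replicate 3).

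Antioxidant and glutathione genes had 14 of 26 higher and 0 lower, with a median of 2.62, against 8 of 26 with no expression filter and 5 of 15 with a mean of 5 TPM in each group. Mgst1, a microsomal glutathione transferase, was listed at 0 in all 6 L libraries and was at 44.3, 208 and 135 TPM in KA_H and 86.3, 73.7 and 117 TPM in APOE_H (adjusted p = 3.72e-05). Nqo1, a quinone reductase, did not pass 0.04 TPM in L and ran from 16.01 to 83.8 TPM in H (5.57, SE 0.67, adjusted p = 0.000192). Gpx4, the peroxidase that repairs oxidised membrane lipids, ran from 59.5 to 271 TPM in L and from 505 to 1389 TPM in H (2.66, SE 0.36, adjusted p = 0.000466). Mt3, a metallothionein that binds zinc and copper, had a median of 0.90 TPM and a highest value of 30.8 TPM in L and ran from 263 to 579 TPM in H (6.80, SE 0.91, adjusted p = 0.000428). Iron handling had 6 of 12 higher (3 of 14 with no filter), the ferritin genes Ftl1 (0.93, SE 0.17, adjusted p = 0.00359) and Fth1 (0.88, SE 0.16, adjusted p = 0.00416) among them. Ftl1 ran from 1648 to 2456 TPM in L and from 2377 to 5831 TPM in H, with KA_H replicate 2 within the L range. Heat shock and unfolded protein genes had 8 of 19 higher, among them Pdia4 and Pdia3, disulfide isomerases of the endoplasmic reticulum (5.24, SE 0.63, adjusted p = 0.000192 and 2.72, SE 0.39, adjusted p = 0.000801). That count was 5 without APOE_H replicate 1 or 2 and 4 without APOE_H replicate 3. Proteasome subunits had 6 of 31 higher at a median of 2.12. That count ranged from 2 (without KA_H replicate 2 or any 1 APOE_H library) through 3 (without KA_H replicate 1 or 3 or APOE_L replicate 1) to 12 (without KA_L replicate 2).

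The protein-coding genes with the largest negative differences had varied roles and were taken by size, not from a gene list. Prkca, encoding protein kinase C alpha, ran from 48.4 to 861 TPM in L (median 125) and from 1.92 to 24.3 TPM in H (median 3.83), the largest negative difference among the protein-coding genes called (-4.51, SE 0.77, adjusted p = 0.00218). Usp24, a deubiquitinating enzyme, ran from 39.1 to 170 TPM in L and from 0.37 to 9.44 TPM in H (-4.08, SE 0.63, adjusted p = 0.00125). Clasp1, which stabilises microtubule ends, ran from 27.8 to 238 TPM in L and from 3.81 to 20.4 TPM in H (-3.57, SE 0.58, adjusted p = 0.00173). Others were Atxn1, encoding ataxin 1 (-3.75, SE 0.89, adjusted p = 0.015), Phf12, a chromatin reader (-3.66, SE 0.72, adjusted p = 0.00563), Ddx23, a helicase of the spliceosome (-3.63, SE 0.76, adjusted p = 0.00775), and Mbd5, a methyl-CpG-binding domain protein (-3.40, SE 0.76, adjusted p = 0.0108). Il33, a nuclear cytokine released from damaged cells, was at 1456, 636 and 1136 TPM in KA_L, 401, 257 and 117 TPM in KA_H, 1584, 2115 and 1943 TPM in APOE_L and 116, 32.2 and 154 TPM in APOE_H. H and L did not overlap in either condition, an arrangement with H lower that 3.19% of all entries shared (-3.30, SE 0.42, adjusted p = 0.000269), and the test of the difference between conditions gave an adjusted p of 0.39.

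The smallest p of the 16602 entries was that of Eif4g3, a scaffold of the translation initiation complex. It was at 14924, 13908 and 14215 TPM in KA_L, 6529, 7941 and 5672 TPM in KA_H, 13252, 13123 and 17418 TPM in APOE_L and 2375, 2184 and 2126 TPM in APOE_H. The L groups lay at a similar level and the APOE_H libraries lay below the KA_H libraries (-1.90, SE 0.10, adjusted p = 8.91e-07). The difference between the conditions was -1.59 (SE 0.21, adjusted p = 0.029), a call also lost in those 3 settings.

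Microglial transcription factors and TGF-beta genes had 3 of 22 lower and 0 higher, with a median of -0.32. The count lower on this list and that on the immediate early list below stand beside 3.26% of all entries called lower. Maf, a transcription factor of macrophages, ran from 311 to 469 TPM in L and from 14.2 to 135 TPM in H (-2.52, SE 0.42, adjusted p = 0.00199). Bhlhe41, a repressor that keeps macrophage identity, ran from 95.6 to 498 TPM in L and from 25.3 to 66.2 TPM in H (-2.29, SE 0.46, adjusted p = 0.00633), and Tgfbr1, a receptor for TGF-beta, from 191 to 508 TPM in L and from 74.3 to 205 TPM in H (-1.45, SE 0.36, adjusted p = 0.0193). Sall1, a further identity factor of microglia, was not called (-0.89, SE 0.47, adjusted p = 0.228). In fits without KA_H replicate 2 or APOE_H replicate 3, 1 gene of the list was also called higher. Of 19 immediate early genes, which neurons and glia induce within minutes of activity, 0 were higher and 2 lower, Fos (-1.01, SE 0.22, adjusted p = 0.0107) and Klf4 (-1.82, SE 0.51, adjusted p = 0.031). The Klf4 call was lost without KA_L replicate 3, KA_H replicate 1 or 3, APOE_L replicate 1 or 2, or APOE_H replicate 3 (adjusted p 0.0586 to 0.0725), and 1 gene of the list was called higher without KA_L replicate 2. The immediate early list had a median of -0.05, which turned positive with upper-quartile scaling (0.09), and of -1.10 in KA and 1.00 in APOE. Fos stood at 1830, 2480 and 2084 TPM in KA_L against 537, 706 and 520 TPM in KA_H, and at 1266, 1729 and 1214 TPM in APOE_L against 2016, 1144 and 834 TPM in APOE_H.

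Markers of other cells moved with H in part, and their part in the differences above was not tested. Neuron markers summed to at most 5.42 TPM in L and 40.8 TPM in H, with the synaptic genes Slc17a7 and Slc32a1 listed at 0 in all 12 libraries. Eno2, the neuronal enolase, was the 1 of 2 tested members that was called (1.78, SE 0.48, adjusted p = 0.0261), a call lost without KA_L replicate 1 (adjusted p = 0.0501) or APOE_L replicate 1 (adjusted p = 0.0516). Astrocyte markers summed to 198 to 403 TPM in L and 905 to 2405 TPM in H, of which Clu alone held 767 to 2021 TPM in H, and 2 of 9 were called higher, Clu and the sodium pump subunit Atp1b2. One astrocyte gene was called lower without APOE_L replicate 1 and 4 were called higher without APOE_H replicate 2. Oligodendrocyte markers summed to 125 to 356 TPM in L and 206 to 1662 TPM in H, with 2 of 7 higher, Apod (3.59, SE 0.60, adjusted p = 0.00199) and Trf, encoding transferrin (1.85, SE 0.34, adjusted p = 0.00392), while Mbp, of myelin, was not called (0.49, SE 0.68, adjusted p = 0.678). Endothelial markers had 4 of 11 higher, among them Ly6c1 (5.06, SE 1.02, adjusted p = 0.00633), and summed to 8.05 to 448 TPM in L and 272 to 1504 TPM in H. Border macrophage markers had 4 of 12 higher, among them Pf4 (4.04, SE 0.78, adjusted p = 0.00481), at sums of 214 to 704 TPM in L and 244 to 877 TPM in H. With no expression filter 2 of the 12 were called, and the calls on the neuron, neutrophil and red blood cell lists were lost. Monocyte markers had 3 of 8 higher, Lyz2 (2.23, SE 0.40, adjusted p = 0.00315), Ace (adjusted p = 0.00195), listed at 0 in all 6 L libraries, and Ccr2 (3.31, SE 0.84, adjusted p = 0.0207). With a mean of 5 TPM or more in each group, those called higher were 0 of 2 astrocyte, 1 of 2 oligodendrocyte and 1 of 2 endothelial markers. They were also 1 of 4 monocyte markers and 0 of 1 border macrophage marker. Members below that mean in a group may have been kept through their H values, so the counts of these lists are descriptions only.

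Neutrophil markers were uneven among the H libraries. S100a8, an abundant protein of neutrophils, was listed at 0 in all 6 L libraries and in APOE_H replicates 1 and 3, and was at 457, 873 and 129 TPM in KA_H and at 485 TPM in APOE_H replicate 2 (adjusted p = 0.0127). The list summed to at most 0.39 TPM in L. It summed to 1004, 1302 and 347 TPM in KA_H and 11.3, 1262 and 0.02 TPM in APOE_H. Of its members 2 of 7 were called higher, and 4 of 5 without KA_H replicate 2. At such L sums the members passed the filter through H values alone, so these counts are descriptions only. Red blood cell markers had 1 of 5 higher, Bpgm (3.21, SE 0.79, adjusted p = 0.0178), and 3 without APOE_L replicate 2, the library with the highest sum, 7386 TPM. With a mean of 5 TPM or more in each group, 0 of 3 red blood cell markers were called. Lymphocyte and NK cell markers had 0 of 6 called by limma, 1 of them lower in H with an unadjusted p under 0.05. Without APOE_L replicate 2, 1 was called higher.

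The 2 conditions share no library, so their own differences can be set side by side. Both come from the fit of all 12 libraries, so their calls share its estimate of spread. In KA, 369 entries were higher in H (2.22%) and 89 lower (0.536%), and in APOE 1205 were higher (7.26%) and 327 lower (1.97%). Of the 458 calls in KA, 413 had the same sign in APOE (90.2%), and of the 1532 calls in APOE, 1320 had the same sign in KA (86.2%), against 64.4% of all entries tested. Calls made in both numbered 261, which is 57.0% of those in KA and 17.0% of those in APOE, and 257 of them had the same sign. The average added 765 calls that neither condition gave alone. Across the 16602 entries, which are not independent replicates, the KA and APOE differences had a Pearson correlation of 0.44 and a Spearman correlation of 0.41. The choroid plexus medians were 5.93 in KA and 7.18 in APOE, those of complex I 2.04 and 2.19, and those of the disease-associated list 1.54 and 1.75. In the fit of all 12 libraries, the KA and APOE differences gave 4 and 10 of 38 complex I genes higher and 3 and 10 of 22 glycolytic genes. They gave 2 and 13 of 25 lysosomal hydrolases and membrane proteins and 10 and 13 of 26 disease-associated genes. The differences between these counts were not tested. Lysosomal hydrolases had medians of 1.01 and 2.18, heat shock genes 0.48 and 2.05, and small-subunit ribosomal proteins 0.95 and 0.18.

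**Figure D4:**
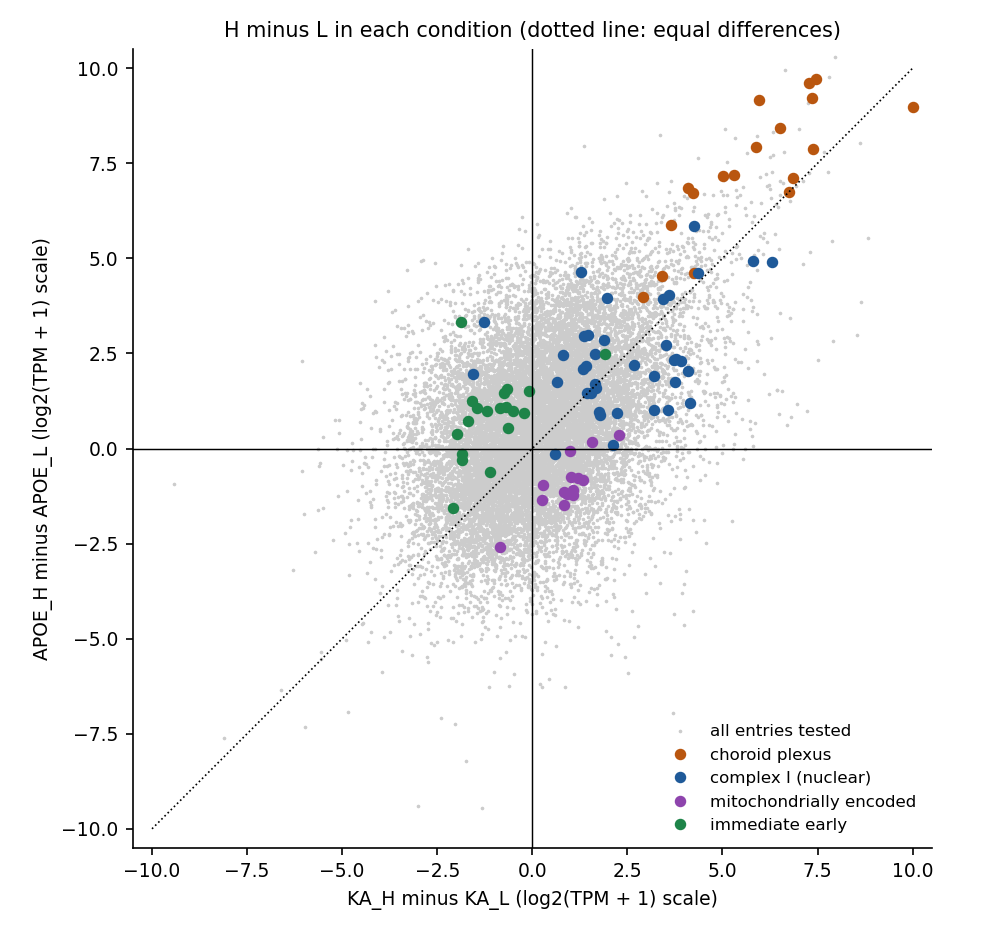
The difference between H and L in APOE (vertical axis) is plotted against that in KA (horizontal axis) on the log2(TPM + 1) scale, with grey points for the 16602 entries tested and coloured points for members of 4 lists. The choroid plexus and most complex I members lie in the upper right part, where both differences are positive, while most mitochondrially encoded genes lie at the lower right (medians 1.01 in KA and -1.03 in APOE) and most immediate early genes at the upper left.

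The difference between the conditions itself was called for 18 entries, 2 with a positive term for APOE minus KA (0.012%) and 16 with a negative one (0.0964%). A negative term covers genes that were lower in H by more in APOE, such as Eif4g3, and genes that were higher in H by less. All 18 calls were lost with a replicate block, a variance prior without a trend or a pseudocount of 5. The 2 with a positive term were Blvrb, a biliverdin reductase (-1.70 in KA and 5.24 in APOE, adjusted p = 0.0391), and Tdp1, a DNA repair phosphodiesterase (-3.28 and 4.69, adjusted p = 0.0391). Both are named for completeness of that count and were chosen after their values were seen, as was Churc1, a zinc finger gene, at 3.92, 1.16 and 1.79 TPM in KA_L and 251, 371.5 and 427.9 TPM in KA_H against 95.8, 219.5 and 77.3 TPM in APOE_L and 231.2, 193.7 and 211.9 TPM in APOE_H. Among the 16 were 6 mitochondrially encoded genes and 3 genes of immune receptors, Tyrobp, Fcer1g and B2m. Tyrobp, the signalling adaptor of Trem2, stood at 4861, 7051 and 4119 TPM in KA_L and 10420, 14514 and 14355 TPM in KA_H, against 10077, 7735 and 9271 TPM in APOE_L and 7231, 6688 and 6068 TPM in APOE_H. All KA_H values of Tyrobp lay above KA_L and all APOE_H values below APOE_L. Fcer1g, an Fc receptor chain, was arranged in the same way. B2m, the light chain of MHC class I, was higher in every KA_H library than in KA_L, while its APOE_H and APOE_L values overlapped. The number of calls by limma depended on single libraries. It was 0 without KA_L replicate 1 or 3, APOE_L replicate 1 or APOE_H replicate 3, 1, 2 and 4 without KA_H replicates 1, 2 and 3, 10 without APOE_L replicate 3, 8 without APOE_H replicate 1 and 36 without KA_L replicate 2. In the fit of all 12 libraries 1656 entries had an unadjusted p under 0.05.

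Genes that were higher in H were shorter than those that were lower. By the GENCODE M21 annotation, matched by identifier, the span of the gene from start to end had a median of 14217 bases over the 1532 protein-coding genes higher in H, 99057 bases over the 319 lower and 25610 bases over all 11584 tested. The median number of exons was 6, 12 and 8 in the same order, and the median transcript length 2292.5, 5564 and 3357 bases. Of 1200 genes spanning under 5 kb, 23.5% were higher in H and 1.42% lower. Of 1680 genes spanning over 100 kb, 5.06% were higher and 9.46% lower. The median difference between H and L was 1.38 in the shortest class and -0.45 in the longest, and it ran from 1.12 to -0.63 in KA and from 1.51 to -0.21 in APOE. Eif4g3 and Acaca fall in the longest class, whereas Ndufa1 spans 3576 bases and Cox8a, a cytochrome oxidase subunit, 2464. Ddx58 (36056 bases) and Il33 (35605 bases) were lower in H at intermediate span. Assembled loci had 24 higher and 132 lower of 2886, with a median of -0.58.

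**Figure D5:**
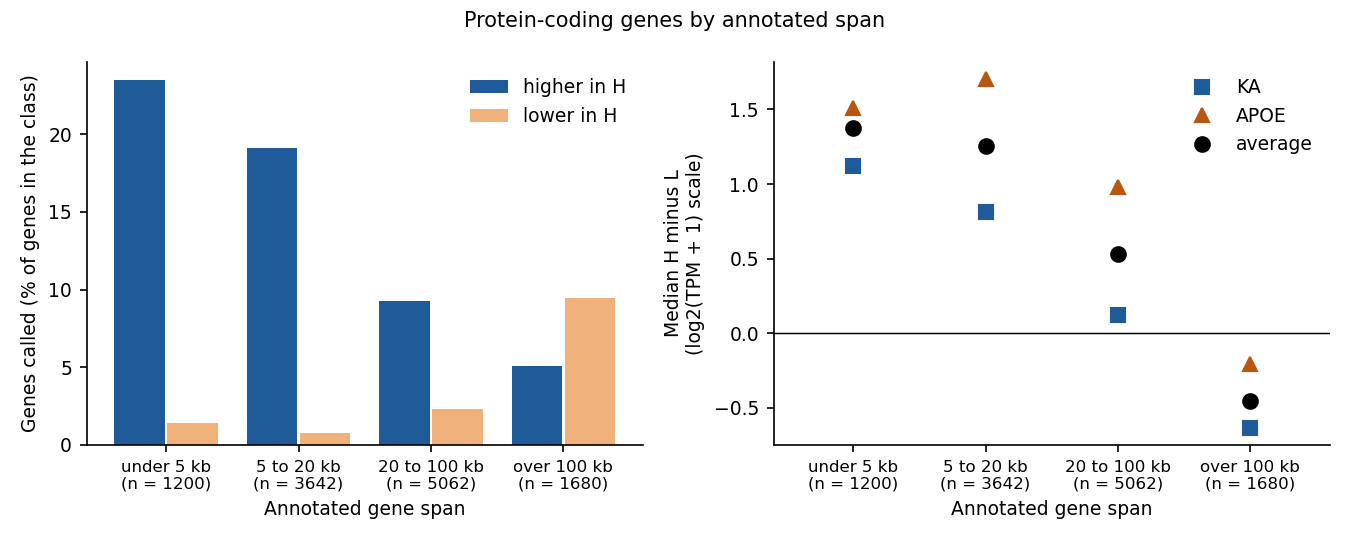
The left panel plots the percentage of protein-coding genes called higher (dark bars) or lower (light bars) in H by class of annotated span, and the right panel the median H minus L difference (vertical axis, log2(TPM + 1) scale) of each class in KA, in APOE and in their average. The share higher in H runs from 23.5% in the shortest class to 5.06% in the longest, and the longest class is the only 1 of the 4 in which more genes are lower (9.46%) than higher.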

How the data were processed

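Total RNA from mouse brain was sequenced (Trizol extraction and TruSeq libraries, per the labels' protocols), and the table analysed here was deposited by the authors as TPM for 65964 entries, of which 10548 are loci assembled from reads without a gene name. STAR and the human build GRCh38 are listed, per the submitters' processing notes, although the identifiers are those of mouse genes; the steps from reads to TPM are not given in the sources used here. TPM keeps no depth, so the precision of a value comes only from the spread between libraries.

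From these values, entries reaching 1 TPM in 3 or more of the 12 H and L libraries were taken as log2(TPM + 1), which understates the change of low genes, and fitted with limma 3.58.1 in R 4.3.3 (4 group means, empirical Bayes with trend, Benjamini-Hochberg adjustment over 16602 entries). The script was tested on simulated data. Library measures were compared by exact permutation of the letters within conditions. Symbols, spans and biotypes came from GENCODE M21 by identifier (52135 matched, 3281 not), and promoters from RefSeq GRCm38.p6, searched on both strands in the 250 bases before the start. Members and gene lists were chosen with earlier results of these data known, and counts and medians of lists are descriptions without a test.

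Genes were named by a fixed rule: Apoe, up to 12 protein-coding genes with the largest difference in each direction without overlap in either condition and at a mean of 5 TPM or more in H or L, up to 10 in each direction at 5 TPM or more in all 4 groups, the 10 smallest p, the 5 smallest p for the difference between conditions, up to 5 called members of each list, and the most abundant markers of each cell type. Other genes given with values are members of the fixed lists, described by role, and some members of these lists are counted but not reported here by name. Alternatives were other pseudocounts, filters, scalings and gene sets, a fit of all 15 libraries, an additive fit, a replicate block, each condition alone and each library left out, and, chosen after seeing the data, APOE_L replicate 1 and KA_L replicate 3 both left out. CTRL_L entered only the fit of 15 libraries. No 2 libraries held identical values.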

Additional observations from a re-analysis of the deposited data

Results flagged for a closer look

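The difference between H and L itself differed between KA and APOE for 13 genes that were named by the rule or held on a gene list. Each had an adjusted p under 0.05 from limma for the term APOE minus KA. All these calls were lost with a replicate block, a variance prior without a trend or a pseudocount of 5. The values that follow are that term on the log2(TPM + 1) scale. Among mitochondrially encoded genes it was -2.30 for mt-Atp6 (adjusted p = 0.029), -2.15 for mt-Cytb (0.0391), -1.97 for mt-Co2 (0.0391), -1.75 for mt-Rnr2 (0.0391), -2.10 for mt-Atp8 (0.0343) and -2.16 for mt-Nd1 (0.0305), each positive in KA and negative in APOE. The nuclear copies of mitochondrial sequence had -2.15 for Gm28437 (adjusted p = 0.029) and -2.30 for Gm29216 (0.0298).

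Immune receptor genes had the same signs, with -1.75 for Tyrobp (adjusted p = 0.0298), -2.14 for B2m (0.0298, 1.57 in KA and -0.57 in APOE) and -2.16 for Fcer1g (0.0298, 1.55 in KA and -0.61 in APOE). Eif4g3 was lower in H in both conditions, at -1.11 in KA and -2.70 in APOE, a term of -1.59 (adjusted p = 0.029). Gm24616, a small nucleolar RNA, had -2.99 in KA and -9.41 in APOE, a term of -6.41 (adjusted p = 0.029), and was listed at 0 in all 3 APOE_H libraries.

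Of 8 library measures, 2 differed between the conditions. The term APOE minus KA was -8.996 percentage points for the share of TPM in mitochondrially encoded genes and -17.05 points for the share in the 100 highest entries (12.1 in KA and -4.93 in APOE). Each had an exact permutation p of 0.005, the smallest possible, and an adjusted p of 0.02.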

How the results depend on the processing

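Of 175 named genes called, 50 stayed called in every setting that gave a value and 125 were lost in at least 1. Against 1649 entries higher and 541 lower, no expression filter gave 865 higher, a mean of at least 5 TPM in each group 374 higher, quantile normalization 1105 lower, and KA alone 369 higher and 89 lower and APOE alone 327 lower. Fewer entries (6036) were tested with the mean of 5 TPM and more (40095) with no filter. The differences in 1 condition alone compare fewer samples, with the spread taken from the fit of all 12 libraries. For quantile normalization the cause was not tested. Leaving out 1 library gave 1164 to 1870 higher and 338 to 603 lower. The replicate block gave 1460 higher and 460 lower. The labels do not say that a number marks an animal or day, so the numbers were not taken to pair libraries. Correlations above 0.1 were found in 0 of 18 same-number pairs (-0.027 to 0.0374) and in 0 of 36 other pairs. Of 12 libraries 8 correlated best with their own number, and whether the numbers pair libraries was not settled. The 18 calls for the difference between conditions became 0 with a pseudocount of 5, the replicate block, no trend or APOE_L replicate 1 and KA_L replicate 3 both left out, 29 with upper-quartile scaling, 5 with quantile normalization, 8 with 15 libraries, and 0 to 36 when 1 library was left out. The cause was not tested.

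Within 1 condition the exact permutation test of a library measure cannot go below p = 0.1. The KA and APOE differences were 2618 and 3354 for entries at 1 TPM or more, -1202 and -1299 for entries above 0, -6.30 and -8.20 points for assembled loci, 8.655 and 15.55 for protein-coding genes, 1.22 and 0.231 for ribosomal proteins and 3.85 and 5.49 for choroid plexus markers. In APOE alone the mitochondrial share (-4.44) and that of the 100 highest entries (-4.93) took the opposite sign of the average. Leaving out 1 library gave -0.343 to 0.470 for the mitochondrial share, negative without KA_L replicate 3 (-0.188), KA_H replicate 2 (-0.343), APOE_L replicate 1 (-0.125) or 2 (-0.176) or APOE_H replicate 2 (-0.280), -1591 to -1018 for entries above 0 (adjusted p = 0.0533, 0.0733 and 0.0533 by exact permutation without APOE_L replicates 1, 2 and 3, at -1264, -1156 and -1331), and 0.604 to 0.823 for ribosomal proteins (0.663 without APOE_L replicate 2, adjusted p = 0.056). Among named genes called in the average or in the condition concerned, the sign reversed in 1 condition alone for Gm28437 (1.07 in KA), Gm29216 (-0.44 in APOE), Tyrobp (-0.43 in APOE) and Nt5e (-0.019 in KA). Sign changes without either call, such as that of mt-Atp6 (0.82 in KA), were not counted. No read depth limits can be given for TPM.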

Other observations

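Short structured RNAs are described here after their values were seen, without a test of the class. Of 49 tested (25 snoRNAs, 16 snRNAs, 7 of the class miscellaneous RNA and 1 ribozyme), 0 were higher and 13 lower by limma, and the others were not called. The lower ones were 26.5% against 3.26% of all entries, and the median difference of all 49 was -0.99 (-1.09 in KA and -1.31 in APOE). The count of 13 lower was the same with upper-quartile scaling, quantile normalization and pseudocounts of 0.1 and 5. Rnu3a, the U3 RNA that guides processing of ribosomal RNA, stood in KA at 738, 1413 and 1029 TPM (L) and 380, 261 and 148 TPM (H), and in APOE at 997, 852 and 850 TPM (L) and 111, 141 and 173 TPM (H). All L values lay above all H values (-2.37, SE 0.29, adjusted p = 0.00022). Snord118, the U8 RNA of the same pathway, ran from 298 to 884 TPM in L and from 48.3 to 326 TPM in H (-2.13, SE 0.38, adjusted p = 0.00283).

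Rny3, a Y RNA that binds the Ro protein, ran from 250.4 to 992 TPM in L and from 0.02 to 152 TPM in H (-6.65, SE 1.04, adjusted p = 0.00129). Snord13 stood at 3143, 2740 and 1898 TPM in KA_L and 2357, 1197 and 2297 TPM in APOE_L, at 1234 and 949 TPM in KA_H replicates 1 and 2, and was listed at 0 in KA_H replicate 3 and all 3 APOE_H libraries. Rpph1, the RNA of ribonuclease P, ran from 16.3 to 137 TPM in L and from 0 to 6.15 TPM in H (-3.90, SE 0.72, adjusted p = 0.00398). Rnu11 and Rnu12, RNAs of the minor spliceosome, were also lower (-3.44, SE 0.68, adjusted p = 0.00578 and -3.17, SE 0.77, adjusted p = 0.0162). The 13 called RNAs span 102 to 319 bases, and small nuclear and Y RNAs are known as multicopy families, so values of single entries are uncertain where reads could be split between copies, which was not checked for these entries. Of the 13, 12 stayed called when any 1 library was left out, and Gm26244 was lost in 8 of those 12 fits.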
